A study of Mus musculus with 6 samples.

Results

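The Kruppel-like factors described here are 10 zinc finger transcription factor genes (Klf2, Klf3, Klf4, Klf5, Klf6, Klf9, Klf10, Klf11, Klf13 and Klf15), out of 18193 genes that the array measured under a single symbol. Members were found by symbol in the platform annotation, which gave 31 probe sets out of 45101 on the array. The measurements come from epithelium of the jejunal crypts of 3 Sox9-deficient mice (KO 1 to KO 3) and 3 wild-type littermates (WT 1 to WT 3). The mice of both groups were C57BL/6 and 3 months old, with no treatment named in the labels, and each gave total RNA for 1 single-colour Affymetrix array. The study asked which genes depend on Sox9, a transcription factor of the crypt base; the labels do not say how Sox9 was inactivated or in which cells. Precision is limited by the number of arrays.

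Kruppel-like factors bind GC-rich and CACCC elements through zinc fingers at their C-terminal end, and they activate or repress genes according to the cofactors that their N-terminal parts recruit. In the intestine the best known pair is Klf4 and Klf5. Klf4 marks cells that have left the cell cycle and is needed for goblet cell maturation in the mouse colon, while Klf5 is made in dividing crypt cells and promotes their proliferation. Several members, among them Klf2, Klf4, Klf6 and Klf10, are also early response genes, whose transcripts rise quickly when cells are stimulated or stressed.

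Of the letters that these factors recognise, the GC box occurred in the promoters of most members searched, and CACCC at near its share over all windows. RefSeq promoter windows (GRCm38.p6) were held for 8 of the 10 genes, without Klf5 and Klf10, and the 250 bases before the start site were searched on both strands. The GC box GGGCGG was found in 7 of the 8, against 32.7% of all 32851 windows, and the shorter element CACCC in 5 of the 8, against 52.0%. Both motifs were counted separately, and neither contains the other. The members' windows held 59.6% to 78.4% G and C, against a median of 52.4% over all windows, which moves with how often such letters occur; its part in the counts was not tested. Shown are Klf2, whose level varied most between mice among the brightest probe sets, Klf4, which had 4 GC boxes and no CACCC, and Klf9, which had 1 CACCC and no GC box. Capitals mark GGGCGG or CACCC on either strand, 5′ to 3′ on the gene's strand.
Klf2, chr8:72318812-72319061, plus strand: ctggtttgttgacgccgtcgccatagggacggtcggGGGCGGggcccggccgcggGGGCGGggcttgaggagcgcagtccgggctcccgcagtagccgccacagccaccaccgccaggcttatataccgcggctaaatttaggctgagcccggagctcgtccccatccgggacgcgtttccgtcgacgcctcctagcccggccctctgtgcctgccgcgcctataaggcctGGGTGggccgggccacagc
Klf4, chr4:55532476-55532725, minus strand: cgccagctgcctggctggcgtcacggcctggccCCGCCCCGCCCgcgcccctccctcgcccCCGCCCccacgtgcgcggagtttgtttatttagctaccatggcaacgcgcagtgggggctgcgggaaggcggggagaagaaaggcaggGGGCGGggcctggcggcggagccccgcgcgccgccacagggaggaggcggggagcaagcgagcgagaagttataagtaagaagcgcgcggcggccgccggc
Klf9, chr19:23140976-23141225, plus strand: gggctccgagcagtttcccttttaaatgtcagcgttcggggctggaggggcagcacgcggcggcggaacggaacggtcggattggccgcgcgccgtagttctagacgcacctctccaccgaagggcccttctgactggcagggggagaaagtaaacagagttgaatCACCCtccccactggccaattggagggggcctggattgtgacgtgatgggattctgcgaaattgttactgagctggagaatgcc

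The arrays differed in ways that the genotype labels do not describe. On the Sox9 probe set 1451538_at the signal was 2.44, 2.75 and 2.42 on the KO arrays, against 7.61, 5.96 and 5.84 on the WT arrays. That difference of -3.93 had a limma adjusted p of 0.188. On 1424950_at the KO arrays read 5.33, 6.34 and 5.76 and the WT arrays 6.23, 5.38 and 2.68. Its difference was 1.05, with WT 1 and WT 2 within the KO range and WT 3 alone low. The untested 1433889_at differed by -0.10, and where these probes lie relative to the inactivated part is not stated in the labels. The Y-linked gene Eif2s3y (1417210_at) read 2.84 to 2.95 on the KO arrays, against 10.10, 10.12 and 2.86 on WT 1, WT 2 and WT 3. Xist (1436936_s_at), which is transcribed from the inactive X chromosome, read 12.29 to 13.35 on the KO arrays, against 1.92, 3.72 and 13.17 on WT 1, WT 2 and WT 3. The sexes of the mice are not labelled. By these signals WT 3 is the sole control array that shares the sex-linked signal of the mutants. Between the mutants and WT 1 and WT 2, genotype and sex-linked signal differ together and cannot be told apart. The difference between the 3' and 5' Gapdh control probe sets, a measure of RNA integrity, was 0.37 to 0.91 on the KO arrays, against 0.61, 0.65 and 1.75 on WT 1, WT 2 and WT 3. The epithelial and crypt markers (Epcam, Cdh1, Krt8, Krt18, Krt19, Vil1, Cdx2, Lgr5, Olfm4 and Lyz1) were all measured, with a mean of 13.11 to 13.40 on the KO arrays and 13.31 to 13.53 on the WT arrays. The log2 of their summed signal was 17.56 to 17.92 on the KO arrays, against 18.02 to 18.10 on the WT arrays, without overlap. That sum is weighted to the brightest gene, the Paneth cell gene Lyz1. Lyz1 read 15.63, 15.87 and 16.07 on the KO arrays, against 16.60, 16.57 and 16.65 on the WT arrays. The sum therefore does not describe the epithelial markers in general, whose mean overlapped between the groups. Of the 10 genes 8 had a negative difference, and the median was -0.16. In bulk epithelium, fewer cells of a type and less RNA per cell cannot be told apart.

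No Kruppel-like factor passed the test between Sox9-deficient and wild-type crypts. Values are log2 intensities, and a probe set was tested with limma if its mean over the 6 arrays was at least 4. Of the 31 probe sets 25 were tested, with at least 1 for each of the 10 genes, and the other 6 had means between 1.85 and 3.01. Among the 25, 0 passed an adjusted p of 0.05 in limma, where 0.0110% of all 18108 probe sets tested did, and 0 had an unadjusted p under 0.05, where 3.62% did. The smallest unadjusted p was 0.134 and the adjusted p-values (Benjamini-Hochberg over all probe sets) were 0.999. The difference KO minus WT was positive on 14 and negative on 11 probe sets, with a median of 0.02, against 0.03 over all probe sets tested. It was under 0.5 in size on 21 of the 25. KO and WT arrays did not overlap on 3 of the 25 (12%), against 9.12% of all probe sets tested.

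**Figure D1:**
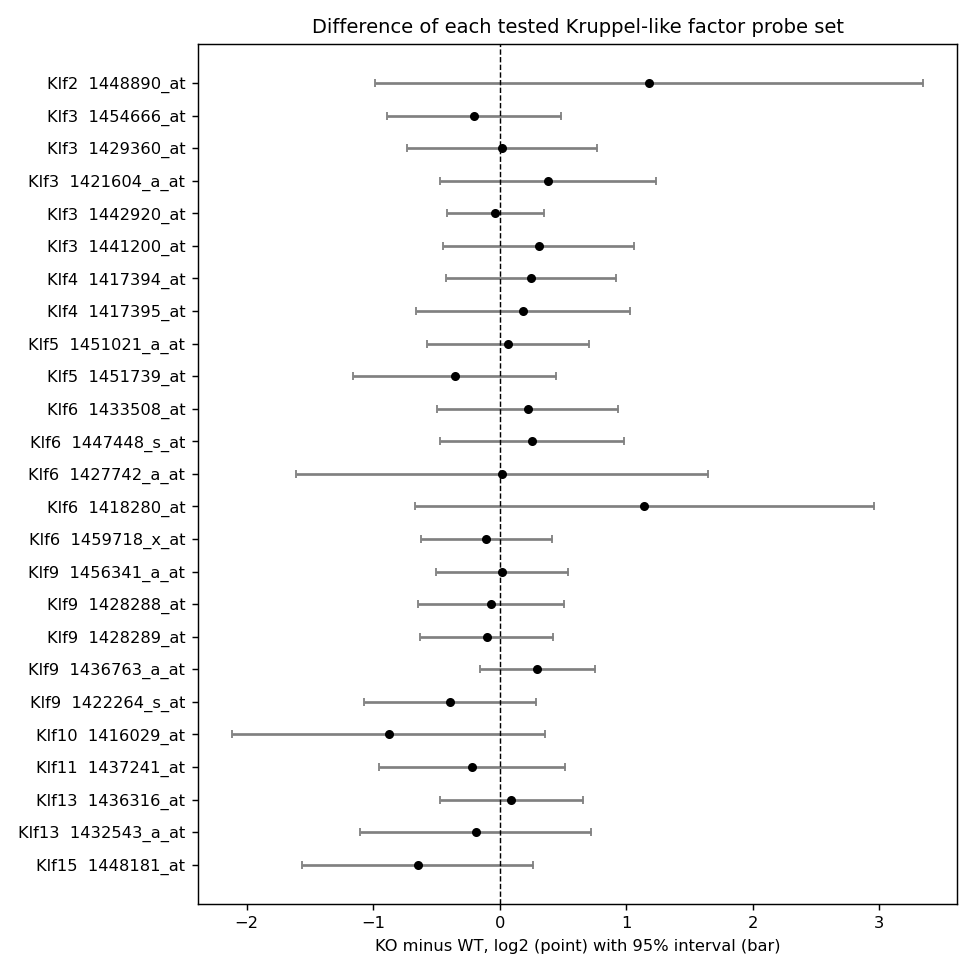
Difference KO minus WT on the log2 scale for each of the 25 tested probe sets, labelled by gene and probe set, with the point as the difference and the bar as its 95% interval from limma. Every bar crosses the dashed line at 0, and the widest bars belong to Klf2 (-0.99 to 3.34) and to Klf6 on 1418280_at (-0.67 to 2.96).

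The probe sets nevertheless varied between mice. The range over the 6 arrays had a median of 1.12 over the 25 tested probe sets, against 0.89 over all probe sets tested, and 17 of the 25 lay above 0.89. KO 3 was the highest array on 12 of the 25, against 17.2% of all probe sets tested, and WT 3 on 6, against 14.8%. KO 1 was the lowest array on 10 of the 25, against 27.4% of all probe sets tested. Probe sets of 1 gene share its transcript, so these counts are not over independent values.

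**Figure D2:**
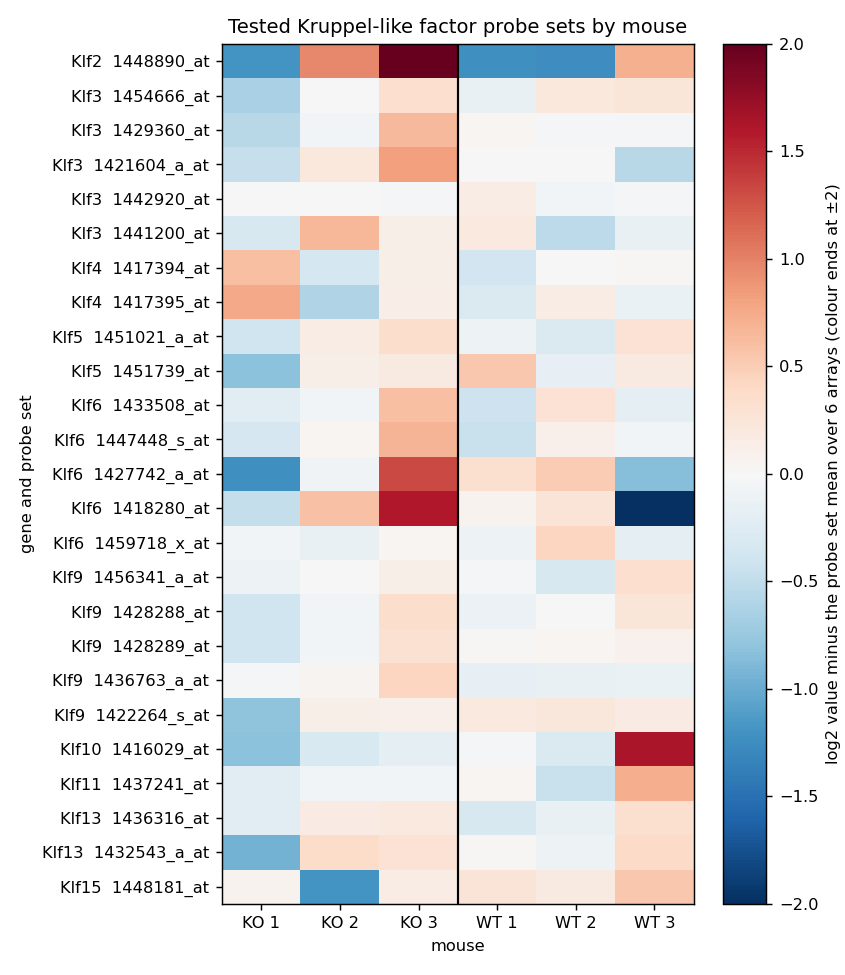
Tested probe sets of the 10 genes (rows, labelled by gene and probe set) on each array (columns, KO 1 to KO 3 left of WT 1 to WT 3), coloured by the log2 value minus that probe set's mean over the 6 arrays. KO 3 is the highest array on 12 of the 25 rows and KO 1 the lowest on 10.

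Klf4, the factor of post-mitotic epithelial cells, did not differ beyond the spread between mice. On its brighter probe set, 1417394_at, it read 11.93, 10.98 and 11.45 on the KO arrays, against 10.95, 11.32 and 11.35 on the WT arrays. KO 1 was the highest array and WT 1 and KO 2 the lowest, so the groups overlapped. The difference was 0.25 ± 0.28 (SE), with a 95% interval of -0.43 to 0.92. The other probe set, 1417395_at, was highest on KO 1 at 10.14 and lowest on KO 2 at 8.79, with a difference of 0.18 (interval -0.66 to 1.03). Leaving out KO 1 moved the differences to 0.01 and -0.14, and leaving out KO 2 to 0.48 and 0.53.

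Klf5, the factor of dividing crypt cells, did not differ beyond the spread between mice either. On 1451021_a_at it read 13.88, 14.43 and 14.63 on the KO arrays, against 14.18, 14.00 and 14.57 on the WT arrays. The groups overlapped, with KO 1 lowest and KO 3 highest. The difference was 0.07 ± 0.27 (SE), with an interval of -0.57 to 0.71. On 1451739_at the KO arrays read 9.07, 10.01 and 10.07 and the WT arrays 10.43, 9.72 and 10.07, a difference of -0.36 (interval -1.16 to 0.45) that became -0.03 without KO 1. KO 1 was thus the lowest array on both tested Klf5 probe sets and the highest on both of Klf4. Over all probe sets tested it was the lowest array on 27.4% and the highest on 24.9%. A further Klf5 probe set, 1430255_at, lay between 2.77 and 3.12 on the 6 arrays and was not tested.

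**Figure D3:**
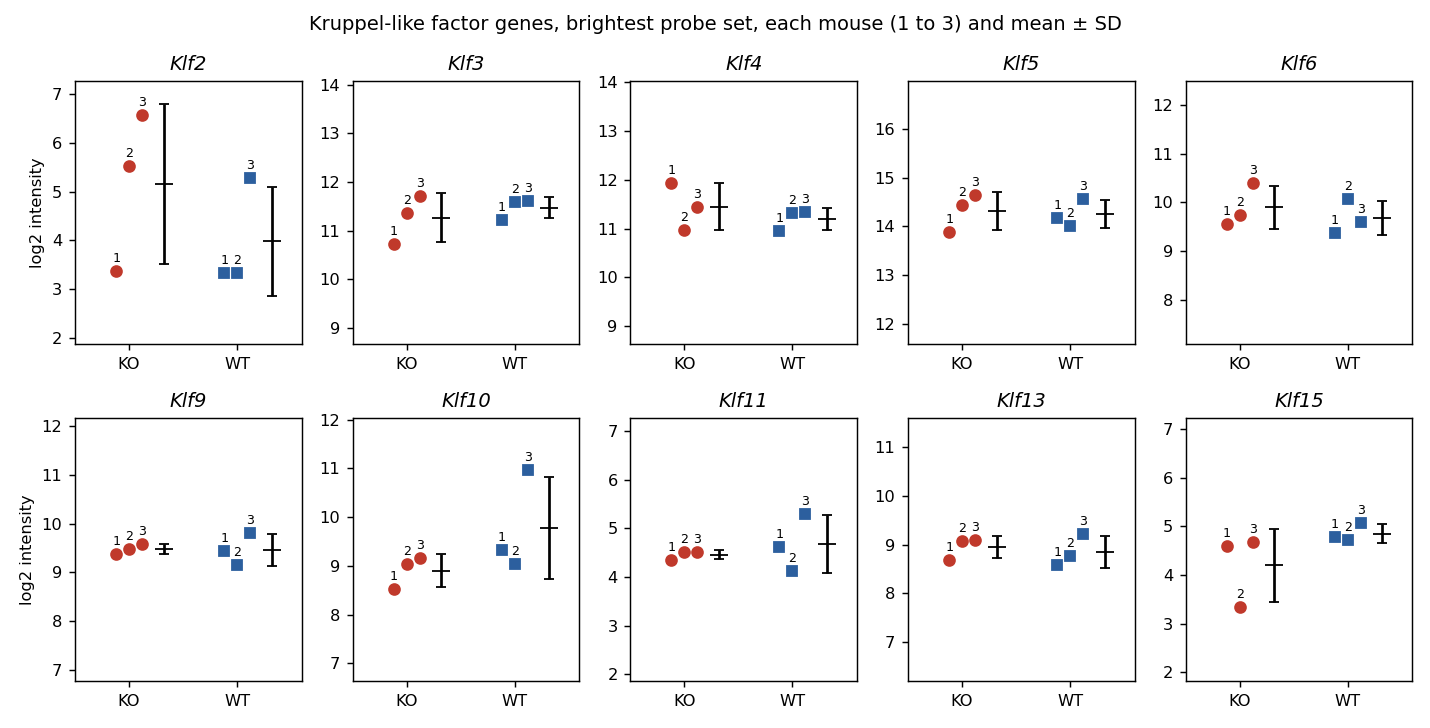
Log2 intensity of the brightest probe set of each of the 10 genes in each mouse, KO (circles) left of WT (squares), numbered 1 to 3, with the mean ± SD of each group (n = 3) as a black bar; every panel spans the same number of log2 units. The groups overlap in each gene except Klf15, and Klf2 and Klf10 have the widest spread.

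Klf2 restrains endothelial inflammation and T cell activation, and it had the largest difference of the 10 genes. It read 3.37, 5.52 and 6.58 on the KO arrays, against 3.34, 3.33 and 5.27 on the WT arrays (1448890_at). KO 2, KO 3 and WT 3 were high, while KO 1, WT 1 and WT 2 lay close together near the low end that the background correction leaves. The difference of 1.18 ± 0.90 (SE) had an interval of -0.99 to 3.34 (limma adjusted p = 0.999; exact permutation p = 0.2, two-sided, where 0.1 is the smallest that 3 mice against 3 can give). It was 0.47 without KO 3 and 2.07 without KO 1. Against WT 3 alone it was -0.11, and -0.13 once Y-linked signal was in the model. Both values set the mutants mainly against WT 3, which had the largest Gapdh difference, 1.75. With the Gapdh difference in the model the Klf2 difference was 1.39, and with array weights 1.87. Xist signal was present on KO 2, KO 3 and WT 3, which were high for Klf2, and on KO 1, which was low. The part of sex or of RNA integrity in the Klf2 values was not tested.

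Other cells of a crypt preparation that make Klf2 were also looked at. Of 7 endothelial markers (Pecam1, Cdh5, Kdr, Tie1, Tek, Emcn and Eng) 0 passed the filter, and their mean was 2.53 to 2.57 on the KO arrays and 2.56 to 2.60 on the WT arrays. Of 11 lymphocyte markers 10 were on the array and 8 were tested, with 0 called and all 8 positive, and a median difference of 1.05. The log2 of their summed signal was 11.34 to 11.89 on the KO arrays, against 9.80, 12.49 and 10.58 on WT 1, WT 2 and WT 3. S1pr1, a Klf2 target in T cells, stayed under 4 on all arrays. Klf2 was low on WT 2, where the summed lymphocyte signal was highest. That sum is weighted to the brightest marker, Gzma, at 12.12 on WT 2, and WT 2 was highest on 6 of the 8 tested markers. The mean log2 value of the markers was instead highest on KO 2. It was 6.54, 6.77 and 5.92 on the KO arrays, against 4.58, 6.46 and 5.52 on the WT arrays. Klf2 was high on KO 2, at 5.52, but low on KO 1, at 3.37, and highest on KO 3, at 6.58. The pan-leukocyte gene Ptprc read 8.68, 9.53 and 8.82 on the KO arrays, against 5.73, 8.50 and 8.67 on the WT arrays. Its difference was 1.38, and 0.43 without WT 1, the lowest array on 7 of the 8 tested markers. The T cell receptor component Cd3d differed by 1.39, and by 0.74 without WT 1. The part of these cells in the Klf2 values was not tested. 

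Klf6, a broadly made factor induced by injury, had 5 tested probe sets that did not behave alike. On the brightest, 1433508_at, it read 9.56, 9.74 and 10.40 on the KO arrays, against 9.37, 10.07 and 9.59 on the WT arrays. KO 3 was highest and the groups overlapped, with a difference of 0.22 ± 0.30 (SE; interval -0.49 to 0.93). On 1418280_at the KO arrays read 5.52, 6.58 and 7.60 and the WT arrays 6.07, 6.25 and 3.95, a difference of 1.14 (interval -0.67 to 2.96). That value moved both ways with single arrays and covariates. It was 0.41 without WT 3, 0.63 without KO 3 and 1.67 without KO 1. It was 0.29 once the Gapdh difference was in the model and 2.59 with Y-linked signal there instead, and the part of either was not tested. On 1427742_a_at, 4.94, 6.10 and 7.48 on the KO arrays stood against 6.49, 6.68 and 5.31 on the WT arrays, with a difference of 0.02. The remaining 2 probe sets, 1447448_s_at and 1459718_x_at, differed by 0.26 and -0.11. KO 3 was the highest array on 4 of the 5, and on 1459718_x_at, whose ending marks probes that may match other transcripts, WT 2 was.

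Klf10 and Klf11 were named for their early induction by TGF-beta and repress genes through the Sin3a corepressor. Klf10 read 8.52, 9.03 and 9.15 on the KO arrays, against 9.32, 9.04 and 10.97 on the WT arrays (1416029_at). WT 3 stood far above the other arrays, and KO 3 lay above WT 2. The difference of -0.88 ± 0.52 (SE) had an interval of -2.11 to 0.36 (limma adjusted p = 0.999; exact permutation p = 0.2, two-sided). It was -0.28 when WT 3 was left out and -0.43 with the Gapdh difference in the model. Modelling Y-linked signal gave -2.08 (limma adjusted p = 0.445), which sets the mutants mainly against WT 3. Klf11 read 4.35, 4.51 and 4.51 on the KO arrays, against 4.61, 4.13 and 5.30 on the WT arrays (1437241_at), again with WT 3 highest. Its difference was -0.22 (interval -0.96 to 0.51). It was 0.09 without WT 3 and -0.86 with Y-linked signal in the model.

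Klf9 and Klf15 are induced by glucocorticoids. Klf9 also influences crypt cell proliferation and villus length in mice, and Klf15 controls amino acid and glucose metabolism in liver and muscle. Klf15 read 4.59, 3.34 and 4.68 on the KO arrays, against 4.78, 4.71 and 5.07 on the WT arrays (1448181_at). All 3 mutants lay under the lowest control, KO 3 by little and KO 2 by far. The difference of -0.65 ± 0.38 (SE) had an interval of -1.56 to 0.26 and was -0.22 without KO 2 (exact permutation p = 0.1, two-sided, the smallest possible).

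Klf9 had 5 tested probe sets, with differences from -0.39 to 0.30. On the brightest, 1456341_a_at, it read 9.37, 9.49 and 9.59 on the KO arrays, against 9.44, 9.15 and 9.81 on the WT arrays, with a difference of 0.02 ± 0.22 (SE; interval -0.51 to 0.54). The KO arrays lay within the WT range. The groups did not overlap on 2 dimmer probe sets, and in opposite directions. On 1436763_a_at the KO arrays read 5.51, 5.62 and 5.99 and the WT arrays 5.40, 5.41 and 5.43, a difference of 0.30 (interval -0.16 to 0.75) that was 0.15 without KO 3. On 1422264_s_at the KO arrays read 4.73, 5.66 and 5.64 and the WT arrays 5.73, 5.76 and 5.71, a difference of -0.39 (interval -1.07 to 0.29) that was -0.09 without KO 1. The probe sets of Klf9 therefore give no common direction. A further 2, 1436952_at and 1452723_at, were under the filter with differences of 0.01 each.

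Klf3 and Klf13 repress transcription, Klf3 through the CtBP corepressors and Klf13 through Sin3a. Klf3 on 1454666_at read 10.73, 11.37 and 11.72 on the KO arrays, against 11.23, 11.58 and 11.61 on the WT arrays. KO 1 was lowest, KO 3 highest, and the difference was -0.20 ± 0.29 (SE; interval -0.89 to 0.49), or 0.07 without KO 1. Its other 4 tested probe sets differed by -0.04 to 0.38, and 2 more were under the filter. The largest, on 1421604_a_at, was 0.07 without KO 3 and 0.71 without KO 1, and that on 1441200_at (0.31) was 0.05 without KO 2 and 0.54 without KO 1. Klf13 on 1436316_at read 8.69, 9.07 and 9.10 on the KO arrays, against 8.59, 8.76 and 9.23 on the WT arrays, with a difference of 0.09 (interval -0.47 to 0.66). Its other tested probe set, 1432543_a_at, read 7.06, 8.37 and 8.29 in mutants, against 8.02, 7.89 and 8.38 in controls, with a difference of -0.19 that was 0.23 without KO 1. The remaining Klf13 probe set, 1456030_at, lay at 1.84 to 1.86 on every array.

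KO 3 and WT 3, which were high for several members, were also high for most immediate early genes. Of 16 such genes (Fos, Jun, Egr1, Dusp1, Atf3, heat shock genes and others) 15 were tested, with 0 called and a median difference of -0.01. Within each group the arrays stood far apart: the median of the 15, taken from each gene's own mean, was -1.24, -0.22 and 1.73 in the mutants 1 to 3, against -0.34, -0.69 and 0.53 in the controls 1 to 3. KO 3 and WT 3 were the highest pair of arrays on 11 of the 15 genes and on 6 of the 25 Kruppel-like factor probe sets, against 7.73% of all probe sets tested. Those 6 belonged to Klf3, Klf5, Klf9 and Klf13, several of them to Klf9 alone. No probe set of the early response genes Klf2, Klf4, Klf6 and Klf10 was among them. KO 1 was the lowest array on 11 of the 15. The nuclear receptor gene Nr4a1 (1416505_at) read 3.60, 5.34 and 6.84 on the KO arrays, against 3.60, 3.60 and 4.95 on the WT arrays, which is the same order of mice as for Klf2 among the 3 raised arrays. Its difference was 1.21 (interval -0.76 to 3.18), and 0.42 without KO 3. Ier3, a stress-induced survival gene, differed by -0.32 (-0.08 without WT 2). Klf4 went another way, with KO 1 at 0.60 above its own mean and KO 3 at 0.12 above it. The part of cell handling or of stimulation in the animal was not tested.

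**Figure D4:**
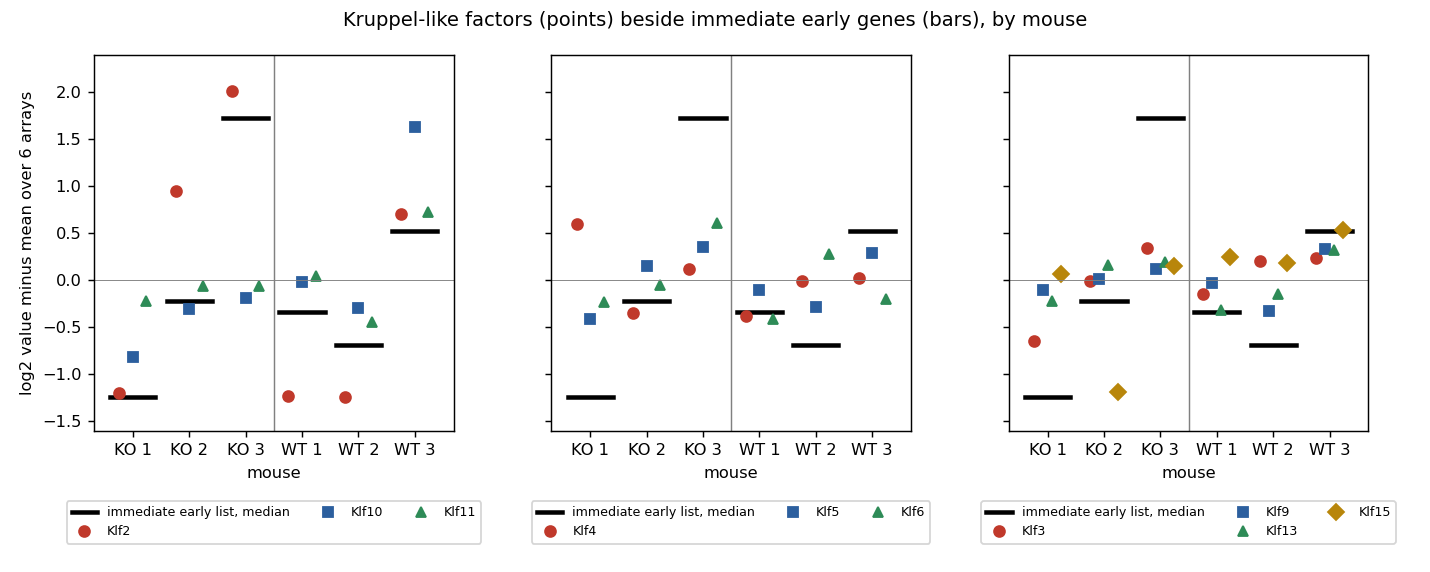
Log2 value of the brightest probe set of each gene minus its mean over the 6 arrays (points), for the 6 mice with KO left of WT; the black bars are the median of the 15 tested immediate early genes on the same scale. The bars are lowest on KO 1 (-1.24) and highest on KO 3 (1.73), as the Klf2 point on KO 3 is, while Klf10 is highest on WT 3 and Klf4 on KO 1.

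The other Kruppel-like and Sp factors were mostly near the low end of the array. Of 15 genes listed, 13 were on the array under 1 symbol and 5 were tested, with 0 called in either direction and a median difference of 0.09. Klf1, Klf14, Klf17, Sp4, Sp6, Sp7 and Sp8 stayed under 4 on all arrays. Klf7 differed by 0.38 (interval -0.39 to 1.14; 0.06 without KO 2) and Klf16 by 0.10 (-0.31 to 0.50). Neither passed in limma.

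Among 14 tested genes for cofactors and turnover of these factors, 0 passed in limma in either direction, and the median difference was -0.01. Sin3a, the corepressor scaffold of Klf9, Klf10, Klf11 and Klf13, read 7.90, 8.32 and 8.31 on the KO arrays, against 7.77, 7.60 and 7.78 on the WT arrays. Every KO array lay above every WT array, and the difference of 0.46 ± 0.19 (SE) had a limma adjusted p of 0.999. Wwp1, a ubiquitin ligase that targets Klf5, read 7.47, 7.67 and 7.43 on the KO arrays, against 7.75, 7.83 and 8.45 on the WT arrays. Its difference was -0.48 (interval -1.05 to 0.09), and -0.26 without WT 3.

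Genes reported elsewhere as targets of these factors did not pass either, with 0 of 8 tested and a median difference of 0.01. The alkaline phosphatase gene Alpi, which Klf4 activates, read 13.11, 13.66 and 12.81 on the KO arrays, against 11.89, 11.90 and 12.94 on the WT arrays. WT 3 lay among the mutants, and the difference of 0.95 ± 0.37 (SE) had a limma adjusted p of 0.999. The cell cycle inhibitor gene Cdkn1a, another Klf4 target, differed by -0.32 (interval -0.81 to 0.16). Nos3, Thbd, S1pr1 and Slc2a4 stayed under 4 on all arrays.

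The cell states in which Klf4 and Klf5 act were described by further lists, in each of which 0 genes passed in limma. Of 8 goblet cell genes 6 were negative, with a median difference of -0.14; the secretory fate factor gene Atoh1 differed by -0.76 and the lectin gene Zg16 by -0.18. Of 8 tested enterocyte genes 6 were positive, with a median of 0.15; the trehalase gene Treh differed by 0.77 and the apolipoprotein gene Apoa4 by 0.82 (0.51 without WT 1). Of 9 tested proliferation genes 8 were positive, with a median of 0.27; Myc differed by 0.80 and the helicase subunit gene Mcm2 by 0.59, or 0.21 with WT 2 left out. WT 2 stood lowest for the proliferation genes, at -0.64 from the gene means, against 0.17 to 0.23 on the KO arrays and 0.11 and 0.01 on WT 1 and WT 3. Klf5 was low on WT 2 as well on 1451021_a_at, but lower still on KO 1, where the proliferation median was 0.19.

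Among 12 tested clock and glucocorticoid response genes, the setting of Klf9, Klf10 and Klf15, 0 passed in limma and the median difference was -0.01. The clock gene Per2 read 4.21, 4.18 and 4.20 on the KO arrays, against 4.89, 4.66 and 4.75 on the WT arrays. All 3 mutants lay under the lowest control, with a difference of -0.57 (interval -0.95 to -0.18; limma adjusted p = 0.999). The KO values lay just above the filter of 4, and Per2 was named because its unadjusted p was the smallest of the 12 genes. The glucocorticoid-induced gene Fkbp5 read 8.67, 10.55 and 11.08 on the KO arrays, against 8.04, 7.09 and 9.50 on the WT arrays. The groups overlapped, and the Fkbp5 difference was 1.89 (interval -0.03 to 3.82; limma adjusted p = 0.999), or 1.33 without WT 2. The list as a whole was lowest on WT 1, at a median of -0.82 from the gene means, and highest on WT 3, at 0.58. Klf15 was likewise highest on WT 3. Its lowest array was KO 2, the next lowest for the list after WT 1, at -0.35. On WT 1 Klf15 read 4.78. 

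Among 9 tested genes of the TGF-beta pathway, which induces Klf10 and Klf11, 0 passed in limma and the median difference was -0.09. The receptor gene Tgfbr2 read 6.87, 6.58 and 6.08 on the KO arrays, against 7.10, 7.43 and 7.85 on the WT arrays. The groups did not overlap, and the difference of -0.95 ± 0.29 (SE) had a limma adjusted p of 0.999. Smad7, an inhibitor in this pathway that Klf10 represses, differed by -0.39 (interval -0.999 to 0.221; -0.18 without KO 2).

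Mesenchymal and myeloid markers differed in how well they were detected. Of 7 mesenchyme markers 1 was tested (Vim, with a difference of -0.38), and Col1a1, Col1a2, Col3a1, Dcn, Acta2 and Des stayed under 4 on all arrays. Of 5 myeloid markers 3 were tested and 0 called; Lyz2, which differed by -1.13 (limma adjusted p = 0.443), is closely related in sequence to the Paneth cell gene Lyz1, which differed by -0.75. The macrophage receptor gene Csf1r read 9.76, 7.12 and 8.36 on the KO arrays, against 2.87, 7.58 and 8.07 on the WT arrays. Its difference of 2.24 was 0.59 with WT 1 left out. Among the epithelial and crypt markers Cdx2 differed by -0.26, and 0 of 10 passed.

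The genes whose pattern over the 6 arrays lay closest to that of Klf4 on 1417394_at, by the root mean square difference of values centred on each gene's mean, were Mkrn1 (0.04), Nipal1 (0.06) and Ccdc120 (0.06). Mkrn1, for example, read 9.87, 8.96 and 9.47 on the KO arrays, against 8.88, 9.24 and 9.27 on the WT arrays, with the same highest and lowest arrays as Klf4. For Klf5 on 1451021_a_at the closest were Urb2 (0.05), Caprin1 (0.06) and Rbm5 (0.06). Caprin1 read 11.59, 12.18 and 12.37 on the KO arrays, against 12.03, 11.83 and 12.28 on the WT arrays. With 18108 probe sets and 6 arrays, close patterns of this kind are a description of these mice.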

How the data were processed

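Total RNA from jejunal crypts of 6 mice was labelled with biotin for 1 single-colour array each, per the labels' protocols. The deposited values are log2 intensities per probe set, for which the submitters' processing notes name GCRMA and limma without version or settings. Background correction of this kind leaves dim probe sets near a floor, so differences there appear compressed or as steps. Of 45101 probe sets 64 array controls were left out, and 0 columns of other samples were used. Symbols came from the platform annotation; all 31 member probe sets matched the RefSeq gene table by gene identifier. The 18108 probe sets averaging 4 or more over the 6 arrays were fitted with limma 3.58.1 in R 4.3.3 (KO minus WT, lmFit and eBayes, two-sided, 4 residual and 2.59 prior degrees of freedom), adjusted by Benjamini-Hochberg over all of them at a threshold of 0.05. Exact permutation tests used all 20 assignments. The fit was tested on simulated data. Lists used the brightest probe set per gene. Named by rule are all member and Sox9 probe sets, per list the called genes or up to 2 of smallest p, and the 3 genes most alike to Klf4 and to Klf5; genes under 4 and the sex-linked and Gapdh checks are named besides. The members and lists were chosen with earlier results of these data known. The p-values describe the spread between these 6 arrays. Alternatives covered the filter, normalization, prior, array weights, probe set choice, the replicate number as a block, covariates for Y-linked signal and the Gapdh difference, each array left out and, chosen after seeing the data, KO against WT 3 alone.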

Additional observations from a re-analysis of the deposited data

How the results depend on the processing

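The count of Kruppel-like factor probe sets past the threshold was 0 under all 17 alternatives run, and the smallest adjusted p of any of them was 0.445 in limma (Klf10 with Y-linked signal as a covariate). The count over all probe sets, 2 in the fit reported, was 0 with a replicate block, 0 with no filter, 1 with a filter at 6, 4 with quantile normalization, 4 with median centring, 11 with array weights, 0 with Y-linked signal and 0 with the Gapdh difference as a covariate, 0 for KO against WT 3 alone, and 0 to 16 with single arrays left out (16 without WT 3). The fit against WT 3 alone has 1 control array, which is assumed to vary as the KO arrays do, so its count of 0 says little about stability. Pairing by replicate number was not seen in the deviations as a whole: same-numbered deviations correlated at -0.05, -0.29 and 0.03, and 0 of 6 arrays correlated best with their own number. Such correlations cannot decide whether same-numbered mice were handled together. KO 3 and WT 3 were the highest pair on 11 of the 15 immediate early genes, against 7.73% of all probe sets tested.

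Directions of members, none of them called, turned on several probe sets, and the cause was not tested. Under quantile normalization the value that turned was Klf9 1456341_a_at -0.028. Under median centring the values that turned were Klf6 1427742_a_at -0.019, Klf3 1429360_at -0.017, Klf9 1456341_a_at -0.018. Under array weights the values that turned were Klf4 1417395_at -0.11, Klf9 1428288_at 0.061, Klf9 1428289_at 0.019, Klf13 1432543_a_at 0.16, Klf3 1454666_at 0.021. Under Y-linked signal as a covariate the values that turned were Klf13 1436316_at -0.27, Klf3 1442920_at 0.014, Klf2 1448890_at -0.13, Klf5 1451021_a_at -0.27, Klf9 1456341_a_at -0.34, Klf6 1459718_x_at 0.15. Under the Gapdh difference as a covariate the values that turned were Klf6 1427742_a_at -0.61, Klf3 1429360_at -0.12, Klf11 1437241_at 0.024. Under KO against WT 3 alone the values that turned were Klf13 1436316_at -0.27, Klf3 1442920_at 0.026, Klf2 1448890_at -0.11, Klf5 1451021_a_at -0.25, Klf9 1456341_a_at -0.33, Klf6 1459718_x_at 0.12.

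With single arrays left out the differences that turned ran from -0.14 to 0.53 for Klf4 1417395_at, -0.64 to 0.63 for Klf6 1427742_a_at, -0.26 to 0.11 for Klf9 1428288_at, -0.28 to 0.073 for Klf9 1428289_at, -0.30 to 0.30 for Klf3 1429360_at, -0.42 to 0.23 for Klf13 1432543_a_at, -0.030 to 0.42 for Klf6 1433508_at, -0.044 to 0.27 for Klf13 1436316_at, -0.50 to 0.088 for Klf11 1437241_at, -0.069 to 0.029 for Klf3 1442920_at, -0.020 to 0.49 for Klf6 1447448_s_at, -0.093 to 0.29 for Klf5 1451021_a_at, -0.43 to 0.068 for Klf3 1454666_at, -0.14 to 0.19 for Klf9 1456341_a_at, -0.22 to 0.086 for Klf6 1459718_x_at. The other 10 tested probe sets kept their direction with each array left out. Values near the floor limit what can be seen of Klf2, Klf11 and Klf15.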
